A study of Mus musculus with 2 samples.

Results

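The 46 genes described here act in the last part of the cell cycle, from entry into mitosis to the separation of the daughter cells. They were taken by gene symbol, and the rule itself used no measured value. All 46 were found among the 34745 genes of the deposited expression data, each under 1 gene identifier, and all 46 reached at least 1 FPKM in a library, as did 10948 genes in all. FPKM scales the reads of a gene by its length and by the depth of the library. Myeloid-derived suppressor cells (MDSCs) are immature myeloid cells that restrain T cells, and M-MDSCs are their monocytic subset, sorted in this study as CD11b+Ly6G-Ly6Chigh cells. Bone marrow cells came from mice aged 6 to 8 weeks. After 7 days in 50 ng/ml GM-CSF alone they gave CHBP- M-MDSC, and after 7 days in GM-CSF and CHBP they gave CHBP+ M-MDSC. CHBP is a cyclic peptide derived from erythropoietin that does not stimulate red cell formation. GM-CSF, a myeloid growth factor, was present in both groups. The methods give the dose of CHBP in micromolar and the results in nanomolar, and by the labels the CHBP- cells were from C57BL/6 mice and the CHBP+ cells from C57BL/7 mice. Each group is 1 library, and the number of mice behind each is not given in the sources used here. The comparison asks how mRNA levels differed between M-MDSCs induced with and without CHBP.

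In mitosis, cyclin B with the kinase Cdk1 drives the cell out of G2, condensin and topoisomerase II compact and untangle the chromosomes, and kinetochores attach them to spindle microtubules. The spindle checkpoint holds back the ubiquitin ligase APC/C until every chromosome is attached. APC/C with Cdc20 then marks securin and cyclin B for destruction, which frees separase to cut cohesin and lets the sister chromatids part. Most of these genes are transcribed as 1 wave in G2 and M phase, under the MuvB complex with B-Myb and FoxM1, so their mRNA is a usual readout of dividing cells in bulk samples. Bone marrow cultures with GM-CSF hold dividing myeloid progenitors beside cells that have left the cell cycle.

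The CHBP- library held 16484504 counted reads over 16828 genes, and the CHBP+ library 16280466 over 17010 genes. The mitotic genes had between 192 and 4864 reads each without CHBP and between 129 and 6869 with it, so none was near the floor of 3 reads (0.182 and 0.184 CPM, counts scaled to the library total). With 1 library per group there is no spread between replicates and no test between the conditions. A fold is given as the CPM in CHBP+ over the CPM in CHBP- M-MDSC, with its exact 95% Clopper-Pearson interval, which covers counting error only, since reads are not independent molecules. The log2 ratio is used for lists. It was taken of FPKM + 1, CHBP+ over CHBP-, so a value above 0 is higher with CHBP, and for genes of low FPKM it is nearer 0 than the fold of CPM. Of the markers of the sorted cells, Itgam (CD11b) had 157 FPKM in CHBP- and 232 in CHBP+ M-MDSC, Csf1r had 113 and 126, and Ly6c2 had 56.9 and 34.0. Ly6c1 had 3.70 and 2.91, the chemokine receptor gene Ccr2 had 3.29 and 3.84, and Ly6g, the marker sorted against, had 2.19 and 2.12. Markers of other cells were present too. The summed FPKM of 5 erythroid markers was 944 in CHBP- and 371 in CHBP+ M-MDSC, with 0 of 5 higher in CHBP+. That of 6 progenitor markers was 349 and 249, with 1 of 6 higher, of 6 neutrophil markers 1922 and 1394, with 1 of 6 higher, of 5 mast cell and basophil markers 283 and 232, with 1 of 5 higher, and of 4 B cell markers 39.7 and 26.1, with 0 of 4 higher. The 5 T cell markers summed to 3.83 and 3.04 FPKM, with 1 of 5 higher. No marker was at 0 in both libraries. The part of such cells in the mitotic values was not tested. In bulk RNA, fewer dividing cells and less mitotic RNA per dividing cell cannot be told apart.

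The mitotic genes had no common direction in CHBP+ M-MDSC. Their median log2 ratio was -0.011, beside -0.028 over all genes kept, and 20 of 46 were above 0 (43.5%), beside 46.3% of all genes. None of the 46 was at least 1.5-fold higher, the fold the study used, and none was at least 1.5-fold lower, beside 3.42% and 2.89% of all genes kept, or 6.3% in either direction. The genes nonetheless differed among themselves, with an SD of the log2 ratio of 0.25, beside 0.34 over all genes kept. Log2 ratios ran from -0.58 for Ube2c to 0.58 for Mki67, which are both just inside that fold. Without a pseudocount, the fold of CPM was 1.51 for Mki67 and 0.650 for Ube2c, just past it, where 6.44% of all genes were at least 1.5-fold higher and 5.54% at least 1.5-fold lower. The interval of the fold lay above 1 for 8 genes (17.4%) and below 1 for 17 (37.0%), and held 1 for the other 21. Over all genes kept, it lay above 1 for 27.9% and below 1 for 31%.

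Summed over the 46 genes, the reads numbered 45727 without and 48319 with CHBP, or 0.277% and 0.297% of the library, a fold of 1.07 (interval 1.06 to 1.08). Mki67 and Top2a were the members with most reads. Without Mki67 alone the fold was 1.02 (1.01 to 1.03). Without both, a choice made after the data had been seen, the other 44 genes had 36251 and 35851 reads. Their fold was 1.00 (0.987 to 1.02), and they included Smc4, with 2917 and 4077 reads.

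**Figure D1:**
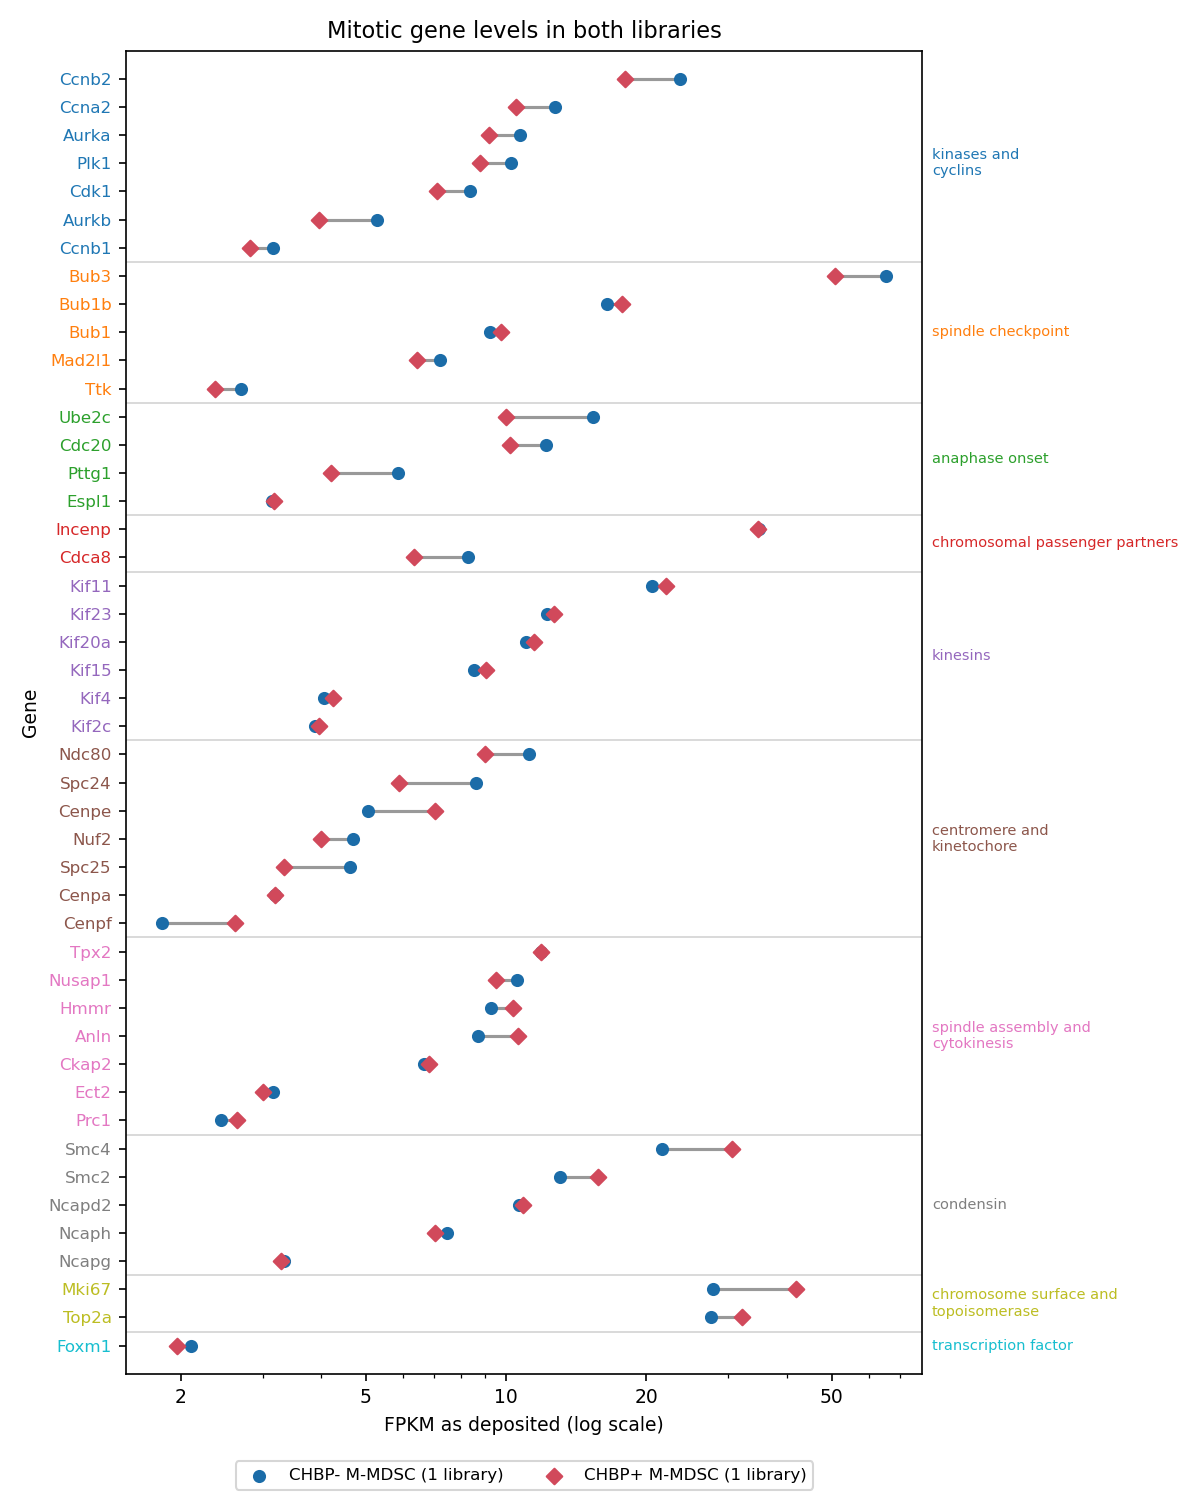
FPKM of each of the 46 mitotic genes (log axis) in CHBP- M-MDSC (circles) and CHBP+ M-MDSC (diamonds), 1 library each, ordered by role and level. All 7 genes grouped as kinases and cyclins sat lower in CHBP+ M-MDSC and all 6 Kif kinesins among the 46 slightly higher. Bub3 was the highest gene in both libraries.

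The 7 genes grouped here as kinases and cyclins were all lower in CHBP+ M-MDSC. Their log2 ratios ran from -0.37 to -0.12. The interval lay below 1 for 6 of the 7, with the exception of Ccnb1. Over all genes kept, 46.3% had a log2 ratio above 0 and the interval lay below 1 for 31%. The checkpoint kinases Bub1 and Ttk, grouped apart, had folds of 1.05 and 0.880 with intervals that held 1. Ccnb2, which encodes cyclin B2, had 601 reads without CHBP and 452 with it, or 23.7 and 18.0 FPKM, a fold of 0.762 (0.673 to 0.862). Aurkb, the kinase that corrects faulty attachments of chromosomes, had 507 and 375 reads, or 5.29 and 3.96 FPKM, a fold of 0.749 (0.654 to 0.858). Ccna2, for cyclin A2, had 1319 and 1074 reads, a fold of 0.824 (0.760 to 0.894). These were the largest differences of the group. Cdk1, the partner of both cyclins, had 692 and 581 reads (8.38 and 7.12 FPKM), a fold of 0.850 (0.760 to 0.951). Plk1 and Aurka, kinases of the spindle poles, had folds of 0.855 (0.754 to 0.970) and 0.857 (0.766 to 0.959). Ccnb1, for cyclin B1, had 419 and 370 reads, and its fold of 0.894 (0.775 to 1.03) was within counting error. Summed over the 7 genes, the reads went from 4771 to 3895, a fold of 0.827 (0.792 to 0.863). Ccna2 overlaps Exosc9, and summed over both the fold was 0.853.

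Genes for the onset of anaphase held the lowest member. Ube2c (ENSMUSG00000001403, chromosome 2 from 164769898 to 164778822 as deposited) encodes the ubiquitin-conjugating enzyme that starts chains for APC/C. It had 703 reads without CHBP and 451 with it, or 15.4 and 9.97 FPKM, a fold of 0.650 (0.576 to 0.732). Pttg1, securin, had 458 and 324 reads, or 5.86 and 4.20 FPKM, a fold of 0.716 (0.619 to 0.828). Both were thus lower by more than counting error. Cdc20, the activator of APC/C, had 461 and 382 reads (12.2 and 10.2 FPKM), a fold of 0.839 (0.731 to 0.963), and with the overlapping Elovl1 the fold was 0.691. Espl1, separase itself, did not share this direction, with 344 and 342 reads, 3.15 and 3.17 FPKM, and a fold of 1.01 (0.864 to 1.17).

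The spindle checkpoint was divided. Bub3, which brings checkpoint kinases to kinetochores, was the most abundant mitotic gene, with 2217 and 1696 reads, or 65.4 and 50.7 FPKM, a fold of 0.775 (0.727 to 0.826). Mad2l1, the subunit that binds and inhibits Cdc20, had 1239 and 1092 reads, a fold of 0.892 (0.822 to 0.969). The kinase Bub1 (793 and 826 reads) and the Cdc20 inhibitor BubR1, encoded by Bub1b (1314 and 1393 reads), had folds of 1.05 (0.956 to 1.16) and 1.07 (0.995 to 1.16). Their intervals held 1, as did that of the kinase Ttk, with 259 and 225 reads and a fold of 0.880 (0.732 to 1.06).

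At the kinetochore, the subunits of the Ndc80 complex, the rod that grips microtubules, were lower, whereas the long motor and scaffold proteins were higher. Spc24 had 192 and 129 reads, or 8.63 and 5.87 FPKM, a fold of 0.680 (0.540 to 0.855). Spc25 had 400 and 285 reads, a fold of 0.721 (0.618 to 0.842). The other two subunits were lower as well, with folds of 0.801 (0.690 to 0.929) for Ndc80 and 0.855 (0.758 to 0.965) for Nuf2. All 4 intervals of the complex lay below 1, beside 31% of those over all genes kept. The summed reads of the complex went from 1591 to 1236, a fold of 0.787 (0.730 to 0.848). Cenpe, a kinesin that carries chromosomes to the spindle equator, had 785 and 1080 reads, or 5.05 and 7.03 FPKM, a fold of 1.39 (1.27 to 1.53). Cenpf, a large kinetochore scaffold, had 540 and 764 reads, or 1.83 and 2.62 FPKM, a fold of 1.43 (1.28 to 1.60). The 2 are among the members with the longest transcripts. Cenpa, the histone H3 variant that marks centromeres, had 511 and 504 reads, a fold of 0.999 (0.881 to 1.13). Of the chromosomal passenger complex, in which Aurkb acts, Cdca8 (borealin) had 894 and 675 reads, a fold of 0.764 (0.691 to 0.846), or 0.713 with the overlapping 9930104L06Rik. The scaffold Incenp had 1854 and 1822 reads, 35.0 and 34.8 FPKM, a fold of 0.995 (0.932 to 1.06).

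The 6 Kif kinesins among the 46 genes and other spindle genes here differed little. All 6 Kif genes had log2 ratios above 0, beside 46.3% of all genes kept, but only from 0.023 to 0.090. Every interval of the 6 held 1, as did those of 4503 of the 10948 genes kept. Kinesins kept outside the 46 genes went both ways. Kif22 and Kifc1 had folds of 0.751 (0.668 to 0.844) and 0.778 (0.644 to 0.938). Kif20b and Kif14 had folds of 1.20 (1.09 to 1.33) and 1.36 (1.15 to 1.61). Kif18b had a fold of 0.933 with an interval that held 1. Cenpe, a kinesin grouped here with the kinetochore genes, was higher, with a fold of 1.39 (1.27 to 1.53). Kif11, the motor that pushes the spindle poles apart, had 1637 and 1726 reads, or 20.6 and 22.0 FPKM, a fold of 1.07 (0.997 to 1.14). Kif23, of the centralspindlin complex, had 692 and 707 reads, a fold of 1.03 (0.930 to 1.15). Kif20a overlaps Cdc23 and Kif4 overlaps Pdzd11, and summed with these genes the folds were 1.07 and 0.918. Pdzd11 had more reads (610 and 505) than Kif4 (383 and 395), whose own fold was 1.04 (0.905 to 1.21). Of the 7 genes for spindle assembly and cytokinesis, 2 had an interval above 1 and 1 below, beside 27.9% and 31% of all genes kept. Anln, the actin-binding scaffold of the cleavage furrow, had 779 and 935 reads, or 8.72 and 10.6 FPKM, a fold of 1.22 (1.10 to 1.34). Hmmr, which binds spindle microtubules, had 912 and 1003 reads, a fold of 1.11 (1.02 to 1.22). Nusap1, which bundles microtubules near chromosomes, had 1056 and 942 reads, a fold of 0.903 (0.826 to 0.987). Tpx2, the activator of Aurora A, was level, with 1418 and 1400 reads and 11.9 FPKM in both libraries. Prc1, Ect2 and Ckap2 had folds from 0.955 to 1.08 with intervals that held 1. Summed with an overlapping gene, the fold was 1.10 for Prc1 with Rccd1 and 0.882 for Nusap1 with Oip5.

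Genes that shape chromosomes included the highest members. Mki67 (ENSMUSG00000031004, chromosome 7 from 135689788 to 135716379 as deposited) encodes Ki-67, the common marker of dividing cells, which coats mitotic chromosomes. It had 4612 reads without CHBP and 6869 with it, or 27.8 and 41.9 FPKM, a fold of 1.51 (1.45 to 1.57). Top2a, topoisomerase II alpha, had 4864 and 5599 reads, or 27.5 and 32.0 FPKM, a fold of 1.17 (1.12 to 1.21). In condensin I, the ATPase subunits were higher while the other subunits were level. Smc4 had 2917 and 4077 reads, or 21.6 and 30.5 FPKM, a fold of 1.42 (1.35 to 1.48), and Smc2 had 1293 and 1541 reads, a fold of 1.21 (1.12 to 1.30). Ncapd2 (1566 and 1574 reads), Ncapg (636 and 620 reads) and Ncaph (712 and 663 reads) had folds of 1.02, 0.987 and 0.943, with intervals that held 1. Ncapg overlaps Lcorl, and summed over both the fold was 1.13. Foxm1, a transcription factor of this wave, had 317 and 291 reads, or 2.11 and 1.96 FPKM, a fold of 0.929 (0.790 to 1.09).

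**Figure D2:**
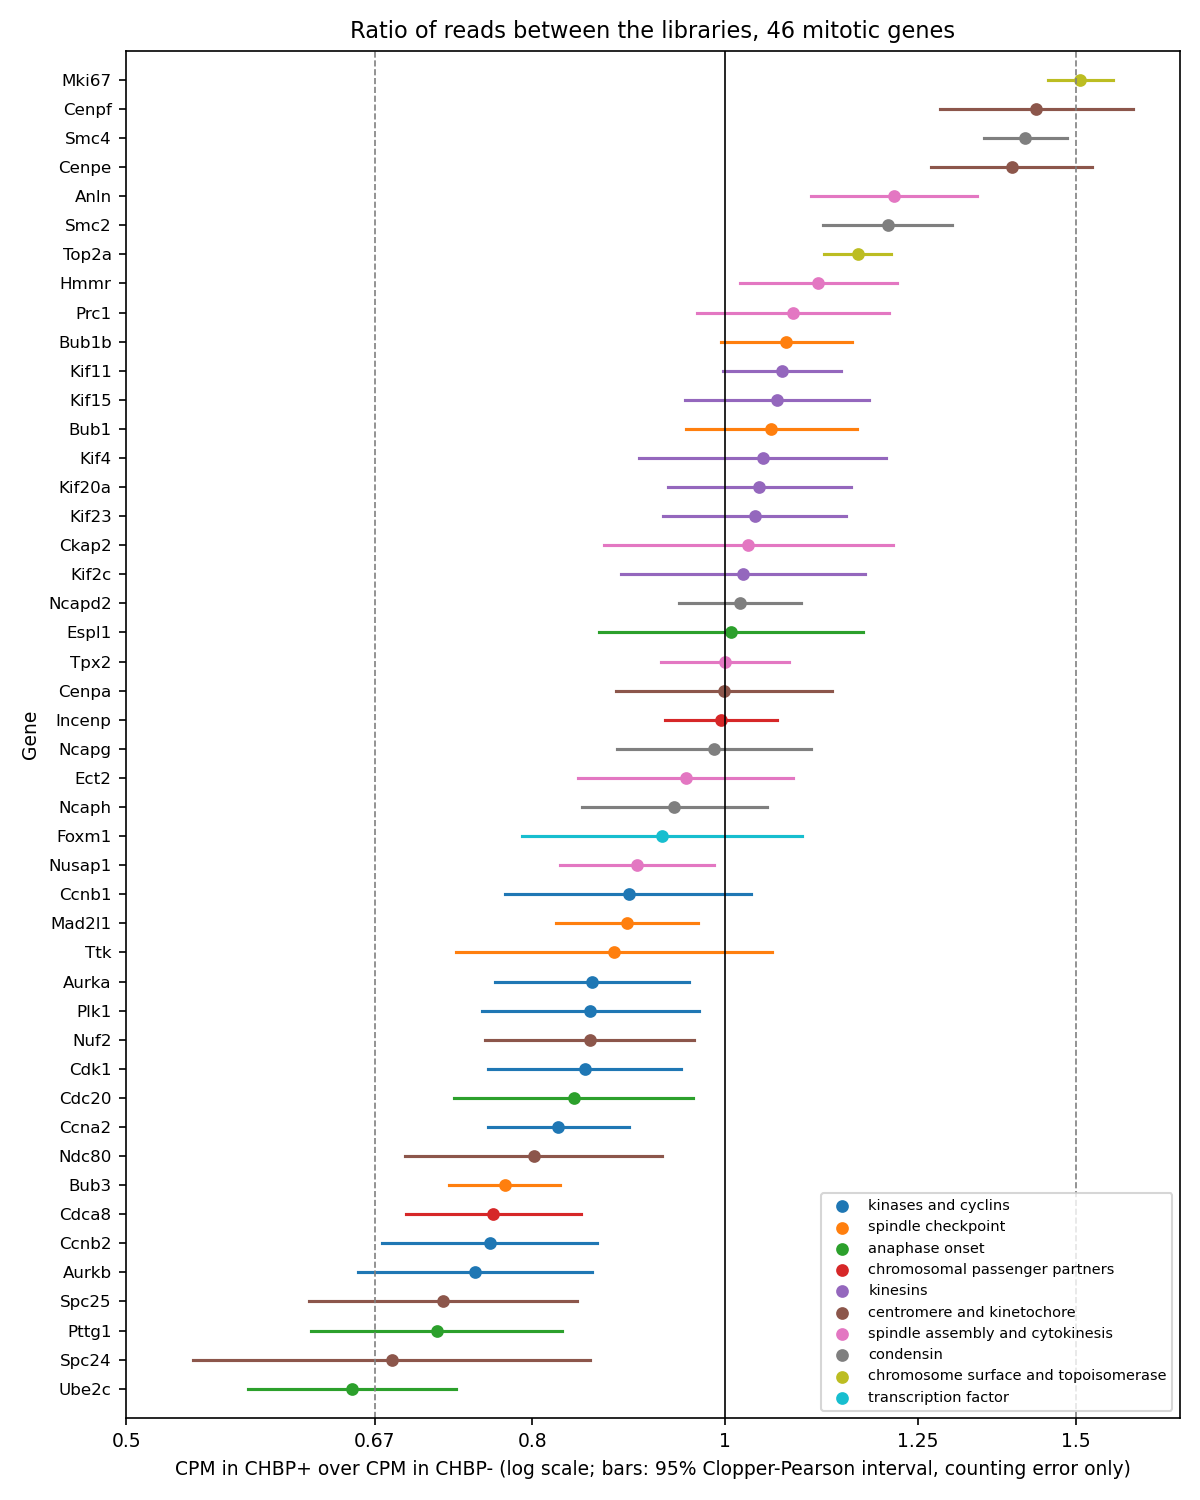
Fold of CPM with CHBP over CPM without it for the 46 genes (log axis), 1 library per group, coloured by role. Bars are 95% Clopper-Pearson intervals for counting error, the solid line marks 1 and the dashed lines 1.5-fold in either direction. The order runs from Ube2c at 0.650 to Mki67 at 1.51, with 21 intervals that hold 1.

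Levels between genes depend on the length used. The gene length implied by the deposited counts and FPKM was more than 2 times the longest transcript of the GENCODE M1 annotation for 17 of the 46 genes, and equalled it within 1 base for 12. For Mad2l1 it was 10414 bases against a transcript of 1725 bases. By deposited FPKM in CHBP- M-MDSC, the order was led by Bub3, Incenp, Mki67 and Top2a, and Mad2l1 was the 29th. By CPM per kilobase of the longest M1 transcript, it was led by Bub3 (65.4), Top2a (56.5), Mad2l1 (43.6) and Smc4 (41.0), and Cenpf was last with 2.94. In CHBP+ M-MDSC the same measure gave 50.7 for Bub3, 65.9 for Top2a, 38.9 for Mad2l1, 58.0 for Smc4 and 4.21 for Cenpf, so that Top2a and Smc4 stood above Bub3 there. The choice of length cancels in a fold.

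The log2 ratio of a mitotic gene went with the length of its transcript. The longest M1 transcripts of the 46 genes ran from 1349 to 11137 bases. Across the 46 genes, Spearman's rho between that length and the log2 ratio was 0.817, Pearson's r with the log of the length was 0.808, and rho was 0.815 without the 2 longest and 2 shortest. The same rank correlation was 0.658 across 10508 genes kept with a transcript in this annotation. Genes are not independent replicates, and all points come from the same pair of libraries. With the gene length implied by the deposited values in place of transcript length, rho was 0.443 for the 46 genes and 0.478 over all genes kept. Among the 15 mitotic genes with the shortest transcripts, from 1349 to 2489 bases, 0 of 15 were above 0 and the median log2 ratio was -0.29, beside -0.17 for all 2608 genes in that range, of which 19.4% were above 0. Among the 15 with the longest, from 4086 to 11137 bases, 12 were above 0 and the median was 0.090, beside 0.20 for 2954 genes in that range, of which 83.3% were above 0. The 16 in between had a median of 0.0080, beside -0.0065. Summed reads of the shortest 15 went from 9940 to 7925, a fold of 0.807 (0.784 to 0.832), and those of the longest 15 from 22662 to 27803, a fold of 1.24 (1.22 to 1.26). The part of transcript length in each gene's fold was not tested, and with 1 library per group a difference that goes with length and one that goes with CHBP cannot be told apart.

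**Figure D3:**
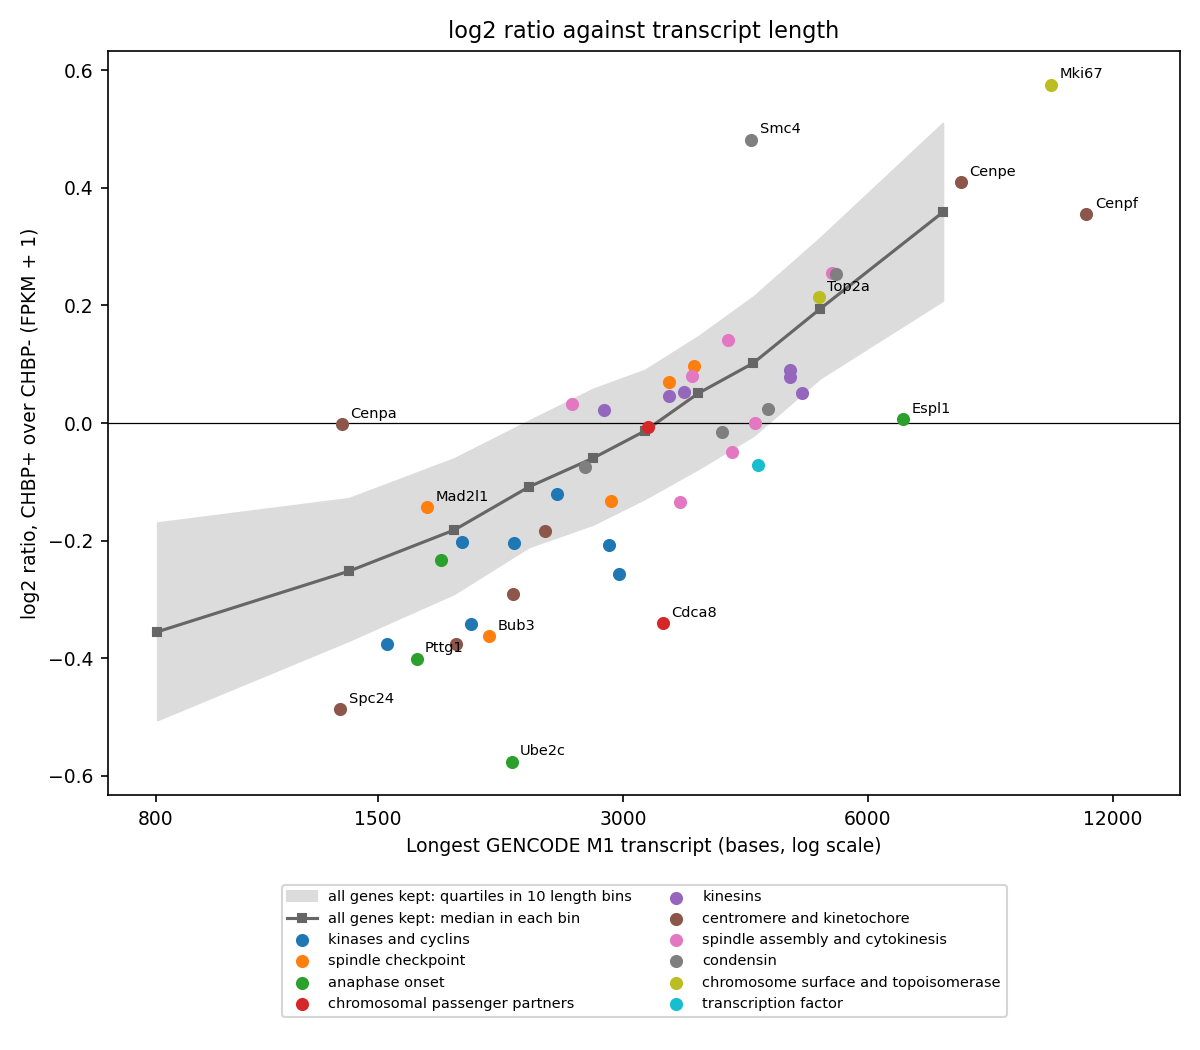
Log2 ratio (CHBP+ over CHBP-, FPKM + 1) against the longest GENCODE M1 transcript in bases (log axis) for the 46 genes, coloured by role, with the median (line) and quartiles (grey band) of all genes kept in 10 bins of length. The mitotic genes climb along the band of all genes, from Spc24 (1349 bases, -0.49) to Mki67 (10075 bases, 0.58). Ube2c, Cdca8 and Espl1 lie farthest below the band, and Smc4 and Cenpa farthest above it.

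When the running median of all genes at the same transcript length was subtracted, a step added once the data had been seen, the spread of the mitotic genes narrowed and their median moved down. The SD over the 46 genes went from 0.25 to 0.15, and the median from -0.011 to -0.074, with 17 genes above 0 and 28 below. Over all genes with a transcript length, 50.01% were above 0 on this measure. The SD over all genes kept was 0.34 before subtraction, and over all genes with a transcript length it was 0.26 after subtraction. The values after subtraction ran from -0.46 for Ube2c to 0.39 for Smc4. Of all genes, 1.96% had a value at or below that of Ube2c and 5.09% at or above that of Smc4. Cdca8 stayed at -0.35, where 4.30% of all genes were at or below it, and Espl1 went from 0.0073 to -0.29. Mki67 went from 0.58 to 0.11, and Cenpf from 0.36 to -0.11, so Cenpf turned on this measure. Cenpf had low FPKM, where a log2 ratio of FPKM + 1 is nearer 0 than the fold of CPM. The log2 of its CPM fold was 0.52, beside a running median of 0.47 at its length. Mad2l1 turned too, from -0.14 to 0.041. By role, all 7 kinases and cyclins stayed below 0, from -0.23 to -0.022, as did all 4 subunits of the Ndc80 complex, from -0.24 to -0.076. The 4 genes of anaphase onset were all below 0, from -0.46 to -0.047. The 6 Kif kinesins, all above 0 before, were 3 above and 3 below.

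**Figure D4:**
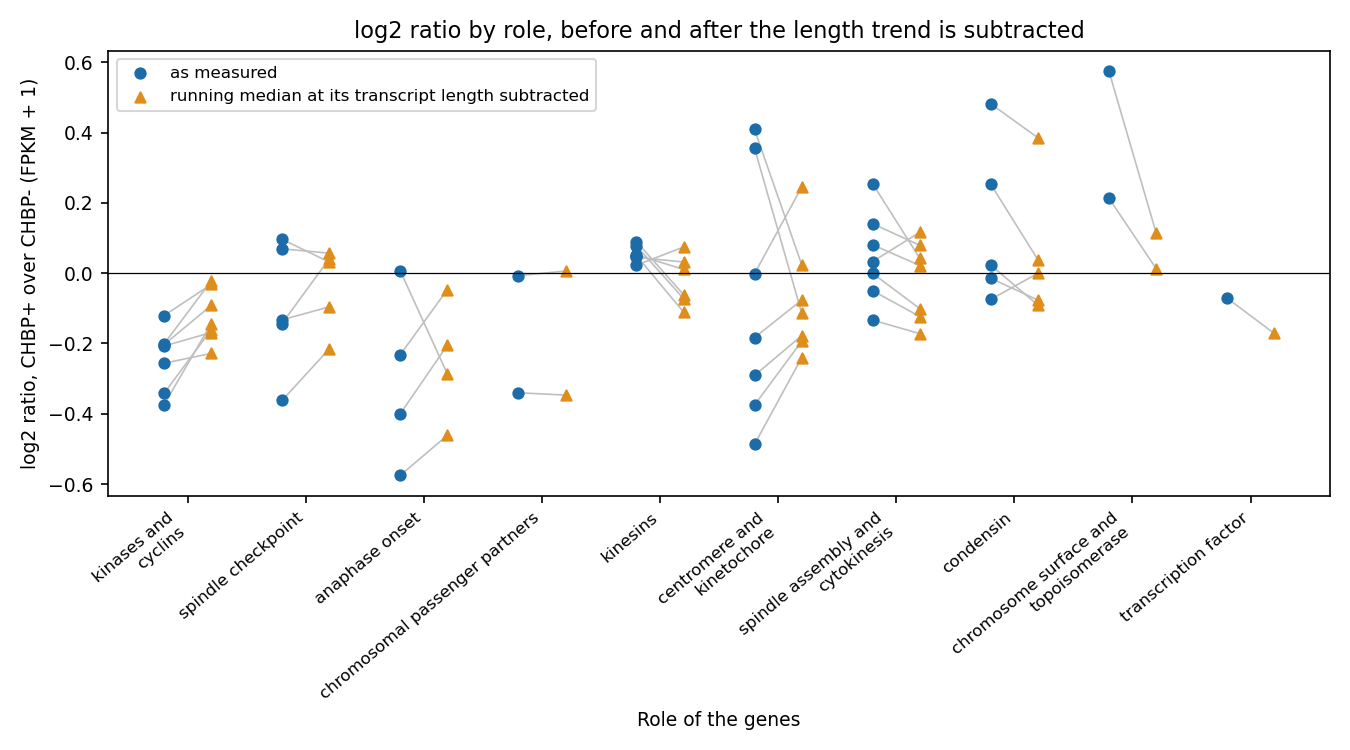
Log2 ratio (CHBP+ over CHBP-, FPKM + 1) of each gene by role, as measured (circles) and after the running median of all genes at its transcript length was subtracted (triangles), joined by a line for each gene. Kinases and cyclins stayed below 0 in both, whereas Mki67 moved from 0.58 to 0.11.

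Sequence upstream of these genes was examined for the elements known to serve the G2 and M-phase wave. The cell cycle genes homology region (CHR), TTTGAA, is bound by MuvB complexes, and the CCAAT box, CCAAT, by NF-Y. RefSeq promoters on GRCm38.p6, from 250 bases before to 50 bases after the annotated start, were held for 38 of the 46 genes, with 41 starts. The 8 without an entry were Aurkb, Ccna2, Foxm1, Incenp, Kif20a, Smc4, Spc24 and Tpx2. On either strand, TTTGAA was found for 30 of the 38 genes (78.9%), beside 17.9% of all 32851 promoters, and CCAAT for 29 (76.3%), beside 37.4%. Both were found for 26 genes (68.4%), beside 6.95% of all promoters. Counted by start, as all promoters were, TTTGAA was found for 33 of 41 (80.5%), CCAAT for 32 (78.0%) and both for 29 (70.7%). A TTTGAA within 50 bases on either side of the start was found for 26 of the 38 (68.4%), beside 4.94%. The exact letters TTCCCGCC, the only E2F motif searched, were found for 0 of the 38, beside 2.19%, so 0 is near that share. Other E2F sequences were not searched. A match is a description of letters and not a bound site. TTTGAA can share its last base with a CCAAT box on the other strand, and such cases were counted for both motifs. To show how the element recurs across the roles, 30 bases around the TTTGAA nearest the start are given for 9 genes, 5′ to 3′ on the strand that reads TTTGAA, with the motif in capitals and the GRCm38.p6 position of the 30 bases.
Ccnb2 (chr9:70421533-70421562, minus strand): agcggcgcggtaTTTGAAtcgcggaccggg
Cdk1 (chr10:69352910-69352939, minus strand): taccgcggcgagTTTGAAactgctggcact
Plk1 (chr7:122159453-122159482, plus strand): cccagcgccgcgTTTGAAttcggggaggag
Ttk (chr9:83834684-83834713, minus strand): tccggaaacacgTTTGAAatttccccgctg
Cdc20 (chr4:118437344-118437373, minus strand): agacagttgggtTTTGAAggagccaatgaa
Kif23 (chr9:61946780-61946809, minus strand): ctgattggcctgTTTGAAatgcgccgggcg
Prc1 (chr7:80294434-80294463, plus strand): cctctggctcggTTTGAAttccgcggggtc
Ncapg (chr5:45669883-45669912, plus strand): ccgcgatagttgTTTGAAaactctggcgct
Top2a (chr11:99024195-99024224, plus strand): tccctagtttcaTTTGAAcctttatctagc
The first 4 and Cdc20 had a fold under 1, as had Ncapg, at 0.987, and Kif23, Prc1 and Top2a had a fold over 1. Genes with TTTGAA in the window had log2 ratios from -0.58 to 0.58, with 16 above 0 and 14 below, and those without it from -0.40 to 0.41, with 2 above and 6 below.

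Whole promoters are shown for the lowest member and for 2 of the highest, all of which hold both motifs, with TTTGAA and CCAAT in capitals on either strand (TTCAAA and ATTGG where the motif is on the opposite strand). Ube2c is on the plus strand, and Cenpf and Mki67 are on the minus strand and are written in the direction of transcription.
Ube2c (chr2:164769679-164769978): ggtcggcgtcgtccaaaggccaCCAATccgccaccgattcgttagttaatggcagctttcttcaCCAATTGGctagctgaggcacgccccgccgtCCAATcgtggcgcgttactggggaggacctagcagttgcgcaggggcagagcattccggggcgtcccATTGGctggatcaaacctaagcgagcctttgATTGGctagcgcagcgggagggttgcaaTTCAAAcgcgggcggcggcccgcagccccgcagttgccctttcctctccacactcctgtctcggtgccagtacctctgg
Cenpf (chr1:189688037-189688336): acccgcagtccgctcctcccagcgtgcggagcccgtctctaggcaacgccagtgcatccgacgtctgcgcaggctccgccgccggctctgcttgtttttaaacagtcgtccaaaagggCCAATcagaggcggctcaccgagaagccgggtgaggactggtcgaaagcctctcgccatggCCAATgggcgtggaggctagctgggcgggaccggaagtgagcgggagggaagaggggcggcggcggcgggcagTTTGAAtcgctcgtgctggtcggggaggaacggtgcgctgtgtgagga
Mki67 (chr7:135716330-135716629): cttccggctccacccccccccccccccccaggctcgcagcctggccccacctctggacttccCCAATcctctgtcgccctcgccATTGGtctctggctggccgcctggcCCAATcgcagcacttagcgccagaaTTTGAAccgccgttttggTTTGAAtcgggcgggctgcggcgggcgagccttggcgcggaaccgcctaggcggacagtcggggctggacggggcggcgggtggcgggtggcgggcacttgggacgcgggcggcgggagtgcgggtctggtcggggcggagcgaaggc
The Ube2c window holds 6 CCAAT motifs, of which 2 overlap on opposite strands, and 1 TTTGAA, which begins 29 bases before the start. The Cenpf window holds 2 CCAAT motifs and a TTTGAA that begins 2 bases after the start base, and the Mki67 window holds 3 CCAAT motifs and 2 TTTGAA, 116 and 98 bases before the start. Both motifs were thus in the windows of genes with folds of 0.650, 1.43 and 1.51.

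Other genes of mitosis, from lists drawn up by function, were also mostly near 0. In all, 108 such genes were kept, with 42 above 0 and 66 below and a median log2 ratio of -0.076, beside 46.3% above 0 and a median of -0.028 over all genes kept. Of these, 2 were at least 1.5-fold higher and 3 at least 1.5-fold lower, beside 3.42% and 2.89% of all genes kept, so these counts were near the background. Cohesin, the ring that holds sister chromatids together, and its loaders and regulators had 12 of 14 genes above 0, a median of 0.22 and summed reads of 24318 and 31105, beside 46.3% above 0 over all genes kept. The median transcript of the list was 4771 bases long. Of all genes with transcripts of 4086 to 11137 bases, the range of the longest 15 mitotic genes, 83.3% were above 0, with a median of 0.20. The cohesin list also held shorter transcripts, such as Cdca5 (2024 bases), so it is not matched to that range. Pds5a, a cohesin regulator, had 2265 and 4302 reads, a fold of 1.92 (1.83 to 2.02), and Nipbl, the cohesin loader, 2105 and 3706 reads, a fold of 1.78 (1.69 to 1.88). After subtraction of the running median by transcript length, Pds5a was at 0.73 and Nipbl at 0.36, and the median of the list was 0.057. On that measure 10 of 14 were above 0, beside 50.01% of all genes with a transcript length. The lowest of the list were Cdca5 (sororin, 349 and 278 reads) and Hdac8, the deacetylase of Smc3 (151 and 149 reads), whose interval held 1.

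For the lists that follow, the share above 0 over all genes kept was 46.3% and the median log2 ratio -0.028. Of the APC/C subunits and its inhibitor, 4 of 17 were above 0, with a median log2 ratio of -0.17. Anapc13 (264 and 150 reads, overlapping Cep63) and the E2 enzyme Ube2s (349 and 218 reads, overlapping Rpl28) were the lowest, and the scaffold subunit Anapc1 (2237 and 2994 reads) and Cdc27 (1179 and 1515 reads) the highest. Of 22 other spindle and centrosome genes, 5 were above 0, with a median of -0.082. Cdca3 (624 and 435 reads) and the kinase Pbk (447 and 330 reads) were the lowest, and the microtubule polymerase Ckap5 (2259 and 3173 reads) and the spindle pole gene Aspm (261 and 392 reads) the highest. Of 28 other centromere and kinetochore genes, 9 were above 0, with a median of -0.13. Cenpp (106 and 54 reads, overlapping Tes3-ps) and Cenpm (86 and 49 reads) were the lowest, and the checkpoint gene Kntc1 (483 and 680 reads) and the Cenpa chaperone Hjurp (1501 and 1790 reads) the highest.

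Of the 3 condensin II genes, Ncapg2 (778 and 1010 reads) and Ncapd3 (861 and 1017 reads) were higher and Ncaph2 (1972 and 1566 reads, overlapping Tymp and Sco2) was lower. Of 12 genes that control mitotic entry, 3 were above 0, with a median log2 ratio of -0.081. The Cdk subunits Cks1b (677 and 448 reads) and Cks2 (314 and 216 reads) were the lowest, and the Cdk1 phosphatase Cdc25c (97 and 120 reads) and its opposing kinase Wee1 (219 and 235 reads, overlapping 1600010M07Rik) the highest, with intervals that held 1 for Cdc25c and Wee1. The genes of the MuvB, B-Myb and DREAM complexes, which switch this wave on and off, were 7 above and 5 below 0, with a median of 0.036, which turned to -0.12 over the genes with at least 5 FPKM. Lin37 (236 and 187 reads, overlapping Hspb6) and E2f4 (1027 and 850 reads) were the lowest, and Lin54, which binds the CHR (518 and 750 reads), and Rbl1 (1058 and 1313 reads) the highest.

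**Figure D5:**
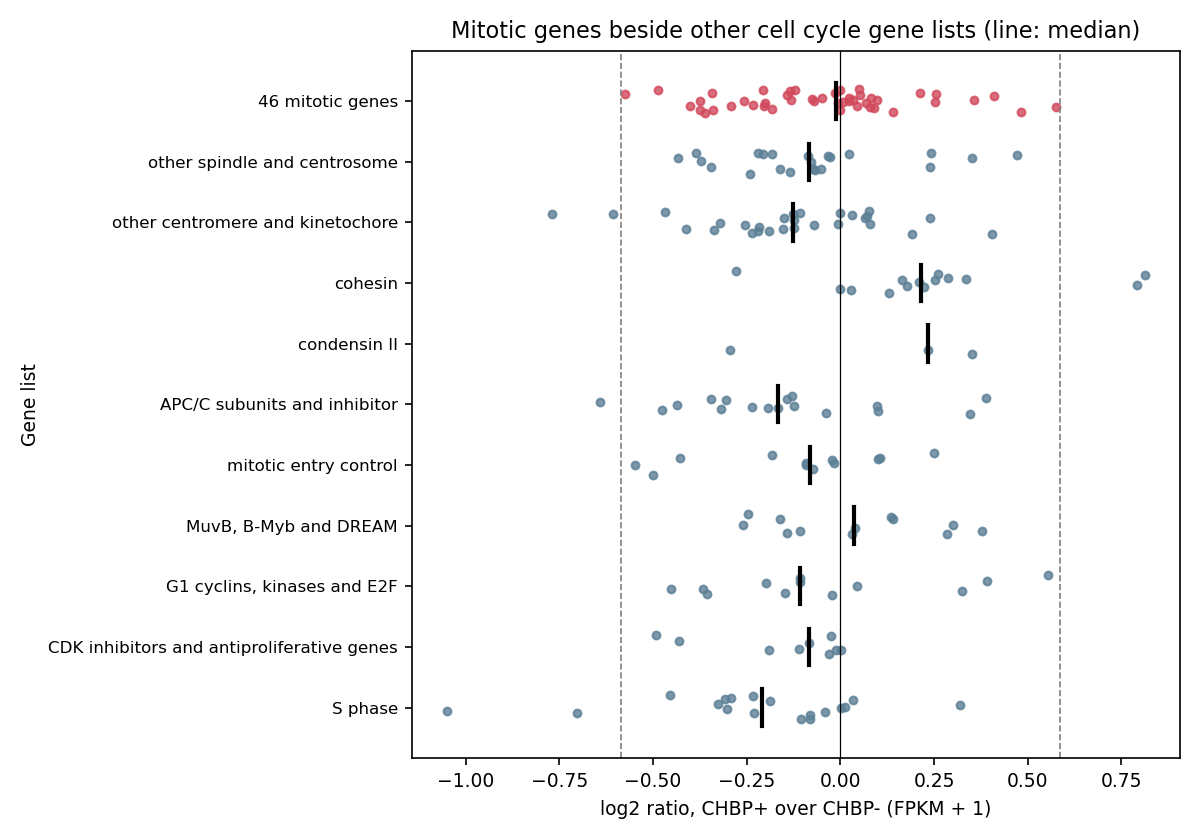
Log2 ratio (CHBP+ over CHBP-, FPKM + 1) of the 46 mitotic genes (top) and of genes kept in 10 other cell cycle lists, 1 point per gene with the median as a line and dashed lines at 1.5-fold. The mitotic median of -0.011 lies near 0, that of cohesin at 0.22 and that of the S phase list at -0.21.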

How the data were processed

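Total RNA of CHBP- and CHBP+ M-MDSC was sequenced by the authors as 1 library each, with single-end reads of 75 bp. Per the labels, reads were trimmed of adapters and poor 3′ bases, and those that were short or from ribosomal RNA were dropped. The paper's methods name TopHat2, HT-seq and mm9, whereas the submitters' processing notes name HISAT2 2.0.4, Cufflinks 2.1.1 and mm10 (GRCm38). Coordinates are given as deposited. The deposited counts are whole reads per gene, and in the deposited FPKM these reads are scaled by a gene length, the same in both libraries, and by the library total. How multi-mapped reads and strand were handled is not given in the sources used here, so overlapping genes are uncertain.

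Genes with at least 1 FPKM in a library were kept. Log2 ratios used a pseudocount of 1 FPKM. The 95% Clopper-Pearson intervals came from the reads in both libraries. Without replicates no test between conditions was fitted. Overlap means a listed span shared with a gene of at least 10 reads. Transcript length is the longest GENCODE M1 transcript by gene identifier, found for 96.0% of genes kept and for all 46 members, and the running median used 501 genes. Promoters are from RefSeq. Members were matched by symbol alone, but the members and gene lists were chosen with earlier results of these data known, so the choice was not blind to the data. Outside the 46 genes, the 2 highest and 2 lowest genes kept of each list were named, and all of lists of up to 8 genes. Of the spindle and centrosome list, the kinesins kept and Birc5 were named too. Of the markers, those of the sorted cells were named. Alternatives were a pseudocount of 0.1, no filter, at least 5 FPKM, CPM, scaling by the median or by trimmed mean of M values with R 4.3.3 and edgeR 4.0.16, removal of the trend with length, overlapping genes left out, and a fold of 2. The interval step and the removal of a trend with deposited gene length were tested on simulated data. Removal of the trend with M1 transcript length was not simulated. Python 3.11.15, numpy 2.4.6, pandas 2.3.3, scipy 1.17.1 and matplotlib 3.10.9 were used.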

Additional observations from a re-analysis of the deposited data

How the results depend on the processing

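No paired analysis was possible because neither group has replicates, and for that reason none was left out in turn. The count of mitotic genes at least 1.5-fold higher went from 0 to 1 (Mki67) with a pseudocount of 0.1, CPM, trimmed mean of M values or the median log2 ratio set to 0, and the count at least 1.5-fold lower went from 0 to 1 (Ube2c) with a pseudocount of 0.1 or CPM. Both genes lie next to the threshold. The median log2 ratio of the 46 genes moved from -0.011 to 0.017 with the median of all genes set to 0, to -0.096 with the trend with deposited gene length removed, to -0.074 with the trend with M1 transcript length removed, and to -0.032 without Mki67 and Top2a, the last 2 chosen after seeing the data. The cause was not tested. With the trend with transcript length removed, Mad2l1 reversed to 0.041 and Cenpf to -0.11. For Cenpf this held for FPKM + 1 only, since the log2 of its CPM fold, 0.52, was not below the running median of 0.47. Of the other members, 13 moved beyond their counting interval and 31 did not. Members whose interval of the fold held 1 changed sign too, among them Espl1, from 0.0073 to -0.29, and Cenpa, from -0.0015 to 0.25. With the trend with deposited gene length removed, 8 moved and 38 did not. Under the other alternatives no member moved that far. Of the medians of the 10 other lists, 6 moved with the trend with transcript length removed, 4 with that with deposited gene length removed, and up to 3 under any other alternative. Depth limits the genes with fewest reads, Spc24 and Ttk, the most.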

Other observations

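The parts of the cell cycle before mitosis stood as follows in the same libraries. Of 18 S phase genes, 4 were above 0, with a median log2 ratio of -0.21, and 2 were at least 1.5-fold lower. Over all genes kept, 46.3% were above 0 and 2.89% at least 1.5-fold lower, and these shares serve for the other lists here too. The summed reads of the 18 S phase genes went from 22270 in CHBP- M-MDSC to 19221 in CHBP+ M-MDSC. The fold was 0.874 (95% Clopper-Pearson interval 0.857 to 0.891). Fen1, the flap endonuclease of lagging-strand synthesis, had 1058 and 446 reads, and it overlaps Tmem258. Gins1, of the replicative helicase, had 176 and 95 reads. The highest were Pola1, the catalytic subunit of polymerase alpha (694 and 896 reads), and Prim1, of primase (447 and 454 reads). With the running median by transcript length subtracted, the median of the S phase list was -0.15, and without the genes that overlap another it was -0.094.

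Among 12 genes of the G1 phase, 4 were above 0, with a median log2 ratio of -0.11. Cdk6, a G1 kinase, had 2675 and 4013 reads, a fold of 1.52 (1.45 to 1.60), and Ccnd2, cyclin D2, which overlaps 9330179D12Rik, had 5337 and 6972 reads, a fold of 1.32 (1.28 to 1.37). Ccne1, cyclin E1, had 429 and 293 reads, a fold of 0.692 (0.594 to 0.804), and Cdk4, which overlaps Tspan31, had 2051 and 1547 reads, a fold of 0.764 (0.714 to 0.816). Cdk4 and Cdk6, which pair with the same cyclins, thus stood in opposite directions, and with the running median by transcript length subtracted they were at -0.22 and 0.49. Of 9 CDK inhibitors and antiproliferative genes kept, 1 was above 0, with a median of -0.085, which turned to 0.0028 with the trend with deposited gene length removed. The lowest were Cdkn2d (581 and 402 reads) and Cdkn3 (100 and 70 reads), and the highest Tob1 (351 and 347 reads) and Tob2 (929 and 910 reads).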
